A study of Mus musculus with 72 samples.

Results

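ATP-binding cassette (ABC) transporter genes were followed in mouse liver across the day under 4 feeding paradigms. The members were the protein-coding genes of the count table whose symbol is Abc, a subfamily letter from a to g, a number and at most one further letter a or b, and whose mean over all libraries was at least 0.5 CPM (a gene's counts scaled to a fixed total per library). Of 50 such genes in the annotation, 37 met this level and 13 did not. Abcc1, at 0.580 CPM, lay just inside the limit, and Abcb6, at 0.379 CPM, just outside it. Of the other genes below the limit, Abca9 had 0.225 CPM and Abca14 0.105 CPM, Abcc12, Abca4, Abca17, Abcg4 and Abcb5 had less than Abca14, and Abca12, Abca13, Abca15, Abca16 and Abcc8 had no count in any library. All 37 members passed the filter on low counts and were tested, and together they held 0.204 percent of all counts.

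Wild-type male C57BL/6J mice, aged 43 to 49 days at the start, were kept in 12 h of light and 12 h of dark. They were fed under an arrhythmic paradigm to which they had not fully adapted (here "incompletely adapted arrhythmic"), an arrhythmic paradigm, a night-restricted paradigm or an ad libitum paradigm. Livers were taken at zeitgeber time (ZT, hours after lights on) 2, 6, 10, 14, 18 and 22, with 3 libraries per time, so that each paradigm had 18 libraries and the series 72. RNA was sequenced from the 3′ ends of polyadenylated transcripts (QuantSeq). The labels do not say that the 3 libraries came from separate mice, so p-values measure the spread between these libraries. The comparisons asked how the course over the day and the mean level of the ABC genes differed between feeding schedules, in animals whose clock genes all carry their wild-type form.

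ABC proteins use ATP to move substrates across membranes or, in subfamilies E and F, to act on ribosomes without spanning a membrane. In the liver, ABC transporters of the canalicular membrane secrete bile salts, phospholipid, sterols and conjugated waste products into bile. Others load cholesterol onto lipoproteins at the blood side, carry fatty acids into peroxisomes or serve heme synthesis in mitochondria.

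Total counts per library ranged from 4342026 to 12286021, with a median of 6992793. Libraries differed in how levels depended on the GC content of the last 500 bases of the transcripts. This GC slope averaged -0.0577 in incompletely adapted arrhythmic, -0.0102 in arrhythmic, 0.0653 in night-restricted and 0.0026 in ad libitum libraries. The 5 libraries farthest from the rest were replicate 1 of incompletely adapted arrhythmic ZT10 and ZT14, at -0.303 and -0.281, and replicate 1 of night-restricted ZT02, ZT06 and ZT22, at 0.363, 0.362 and 0.426. Across the 72 libraries the correlation of a member's log level with the GC slope was negative for 29 members and positive for 8, with a median of -0.427 and a range from -0.946 for Abce1 to 0.824 for Abcf1. Calls below are those of a fit without the GC slope, and the value from a second fit that holds it as a covariate is given where it crosses the threshold. The summed level of 8 hepatocyte markers had a median of 28310 CPM in incompletely adapted arrhythmic, 32320 CPM in arrhythmic, 34830 CPM in night-restricted and 29280 CPM in ad libitum livers, and none of the 8 was at 0.

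Daily rhythm was measured with a cosine curve of 24 h period fitted to the counts of each paradigm, and its size is the fitted range, the log2 difference between peak and trough. In incompletely adapted arrhythmic livers 3 of 37 members passed the rhythm test (edgeR quasi-likelihood F test, Benjamini-Hochberg adjusted p under 0.05 over 12712 genes), where 3.63 percent of all genes did. In arrhythmic livers 3 of 37 passed, where 3.37 percent of all genes did. In night-restricted livers 12 of 37 passed, where 29.9 percent of all genes did. In ad libitum livers 4 of 37 passed, where 7.48 percent of all genes did. The members' share lay near that of all genes in night-restricted livers, and the 3 or 4 members of the other paradigms are too few to set the family apart. The median fitted range over the 37 members was 0.38 in incompletely adapted arrhythmic, 0.49 in arrhythmic, 0.77 in night-restricted and 0.52 in ad libitum livers, beside 0.42 in incompletely adapted arrhythmic, 0.43 in arrhythmic, 0.71 in night-restricted and 0.52 in ad libitum livers over all genes. For 27 of 37 members the fitted range was highest in night-restricted livers, which was so for 54.9 percent of all genes.

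Rhythm was called in all 4 paradigms for Abcg5 and Abcg8, in 3 for Abcb11 and in 1 for each of 11 further members. The other 23 members were called in none. In night-restricted livers 7 of the 12 called curves peaked in the light phase and 5 in the dark phase. Those called in the other paradigms peaked in the light phase in every case.

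**Figure D1:**
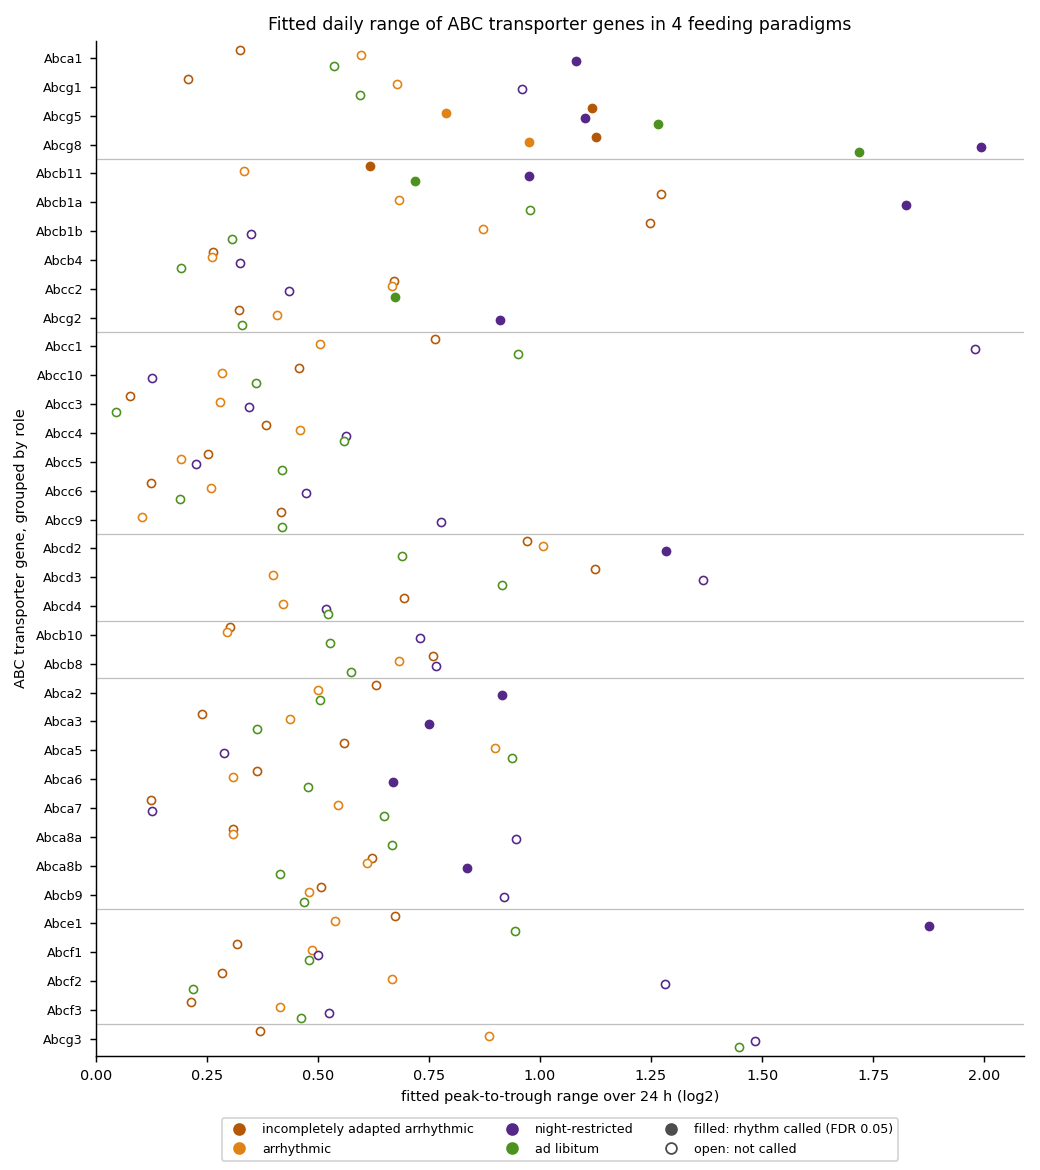
Fitted daily range (log2, horizontal axis) of 35 members, grouped by role, in incompletely adapted arrhythmic, arrhythmic, night-restricted and ad libitum livers. Filled points passed the rhythm test. Abcg5 and Abcg8 are filled in every paradigm, and 12 members are filled in night-restricted livers.

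Abcg5 and Abcg8 encode both subunits of one transporter, an obligate heterodimer that exports cholesterol and plant sterols into bile and the gut. The genes lie head to head on chromosome 17 (GRCm38), Abcg5 at chr17:84658234-84683011 on the minus strand and Abcg8 at chr17:84676302-84700333 on the plus strand. The RefSeq start site of Abcg5, 84683011, and one of those of Abcg8, 84683121, are 110 bases apart. RefSeq has a second Abcg8 start at 84676302, whose window (chr17:84676052-84676351) holds 0 matches of the AGATAA motif described next. Because both were called in every paradigm, the promoter windows (250 bases before to 50 after the start, GRCm38.p6, 5′ to 3′ in each gene's own direction) are shown here, with capitals for each AGATAA and its reverse complement TTATCT, the core bound by GATA factors.
Abcg5, chr17:84682962-84683261, minus strand: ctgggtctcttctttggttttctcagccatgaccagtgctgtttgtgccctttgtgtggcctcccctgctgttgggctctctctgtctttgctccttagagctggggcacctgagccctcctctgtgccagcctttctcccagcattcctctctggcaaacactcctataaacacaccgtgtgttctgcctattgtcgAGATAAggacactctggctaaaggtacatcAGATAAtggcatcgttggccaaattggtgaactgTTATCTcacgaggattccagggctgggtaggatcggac
Abcg8, chr17:84682871-84683170, plus strand: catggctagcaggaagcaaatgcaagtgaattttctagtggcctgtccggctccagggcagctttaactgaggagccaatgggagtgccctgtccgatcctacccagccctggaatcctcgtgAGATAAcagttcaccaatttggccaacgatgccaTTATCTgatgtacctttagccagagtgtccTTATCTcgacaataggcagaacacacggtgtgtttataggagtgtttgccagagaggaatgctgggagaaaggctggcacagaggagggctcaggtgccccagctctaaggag
The 2 windows share 209 bases read on opposite strands, and all 3 matches in each window fall in the shared stretch. AGATAA was sought on both strands and was found in 11.2 percent of the 32851 RefSeq promoter windows. RefSeq windows were at hand for 27 members, some with more than one start, and 3 of their 34 windows held AGATAA. The E-box CACGTG was in 5 of these 34 windows and in 7.15 percent of all windows. The nuclear receptor core AGGTCA was in 6 of 34 and in 16.3 percent of all. The D-box TTATGTAA or TTACGTAA was in 0 of 34 and in 1.06 percent of all.

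The time mean of Abcg5 was highest at ZT10 under every paradigm. It was lowest at ZT22 in ad libitum livers and at ZT18 under each other paradigm. At ZT10 the 3 libraries had 75.4, 84.1 and 67.6 CPM in incompletely adapted arrhythmic, 76.7, 72.4 and 101 CPM in arrhythmic, 87.5, 99.6 and 76.4 CPM in night-restricted and 76.9, 84.0 and 102 CPM in ad libitum livers. At ZT18 they had 42.1, 33.8 and 35.5 CPM in incompletely adapted arrhythmic, 36.1, 37.9 and 52.7 CPM in arrhythmic, 36.5, 34.7 and 46.7 CPM in night-restricted and 49.8, 46.1 and 53.0 CPM in ad libitum livers. In each paradigm all 3 ZT10 libraries lay above all 3 ZT18 libraries. Since ZT10 is the time of highest mean, this is no separate support for the rhythm. The fitted range was 1.12 ± 0.18 (SE) with a peak at ZT 8.98 and an adjusted p of 2.68e-05 in incompletely adapted arrhythmic livers. It was 0.79 ± 0.17 with a peak at ZT 9.25 and an adjusted p of 0.00618 in arrhythmic livers. It was 1.10 ± 0.17 with a peak at ZT 8.61 and an adjusted p of 1.02e-05 in night-restricted livers. It was 1.27 ± 0.17 with a peak at ZT 10.9 and an adjusted p of 9.12e-07 in ad libitum livers. These 4 calls held with the GC slope covariate and with any 1 library left out. The level of Abcg5 rested on a median of 410 counts per library.

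Abcg8 was likewise higher at ZT10 than at ZT18 in every paradigm. Its values are shown beyond the naming rule and were chosen after they were seen. At ZT10 Abcg8 had 62.8, 65.8 and 60.8 CPM in incompletely adapted arrhythmic, 63.6, 101 and 78.1 CPM in arrhythmic, 102, 87.6 and 76.6 CPM in night-restricted and 75.7, 104 and 76.7 CPM in ad libitum livers. At ZT18 it had 31.4, 22.3 and 37.1 CPM in incompletely adapted arrhythmic, 37.1, 39.6 and 45.4 CPM in arrhythmic, 30.0, 13.6 and 14.8 CPM in night-restricted and 30.2, 33.4 and 26.9 CPM in ad libitum livers. The 2 times did not overlap in any paradigm, and the lowest of the 72 libraries, at 13.6 and 14.8 CPM, were both night-restricted ZT18 libraries. The fitted range was 1.13 ± 0.26 with a peak at ZT 6.73 in incompletely adapted arrhythmic livers (adjusted p = 0.00993) and 0.98 ± 0.26 with a peak at ZT 8.99 in arrhythmic livers (adjusted p = 0.0417). It was 1.99 ± 0.26 with a peak at ZT 6.01 in night-restricted livers (adjusted p = 3.13e-07) and 1.72 ± 0.26 with a peak at ZT 8.85 in ad libitum livers (adjusted p = 5.91e-06). The arrhythmic call was lost without any one of 11 libraries, with an adjusted p of up to 0.237 without arrhythmic ZT10 replicate 2, and the incompletely adapted arrhythmic call was lost without ZT06 replicate 3 of that paradigm (0.0535). Exons of Abcg5 and Abcg8 overlap on opposite strands and the strand setting of the counting is not given, but the ends that the 3′ reads come from, at 84658234 and 84700333, lie on opposite sides of the overlap.

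The other genes of sterol and phospholipid export were less steady over the libraries. Abca1, which passes cholesterol and phospholipid to apolipoprotein A-I, was rhythmic in night-restricted livers with a range of 1.08 ± 0.34 and a peak at ZT 18.3 (adjusted p = 0.0370, and 0.00275 with the GC slope covariate). It averaged 22.6 ± 12.5 CPM at ZT18 and 11.3 ± 1.83 CPM at ZT06 there (SD, n = 3). Its call was lost without any one of 8 libraries, with an adjusted p of up to 0.108 without night-restricted ZT18 replicate 2. In the other paradigms its adjusted p was 0.889 in incompletely adapted arrhythmic, 0.650 in arrhythmic and 0.513 in ad libitum livers. Abcg1, which passes cholesterol to high-density lipoprotein, averaged 1.03 CPM over all libraries and was called in no test without the GC slope covariate.

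**Figure D2:**
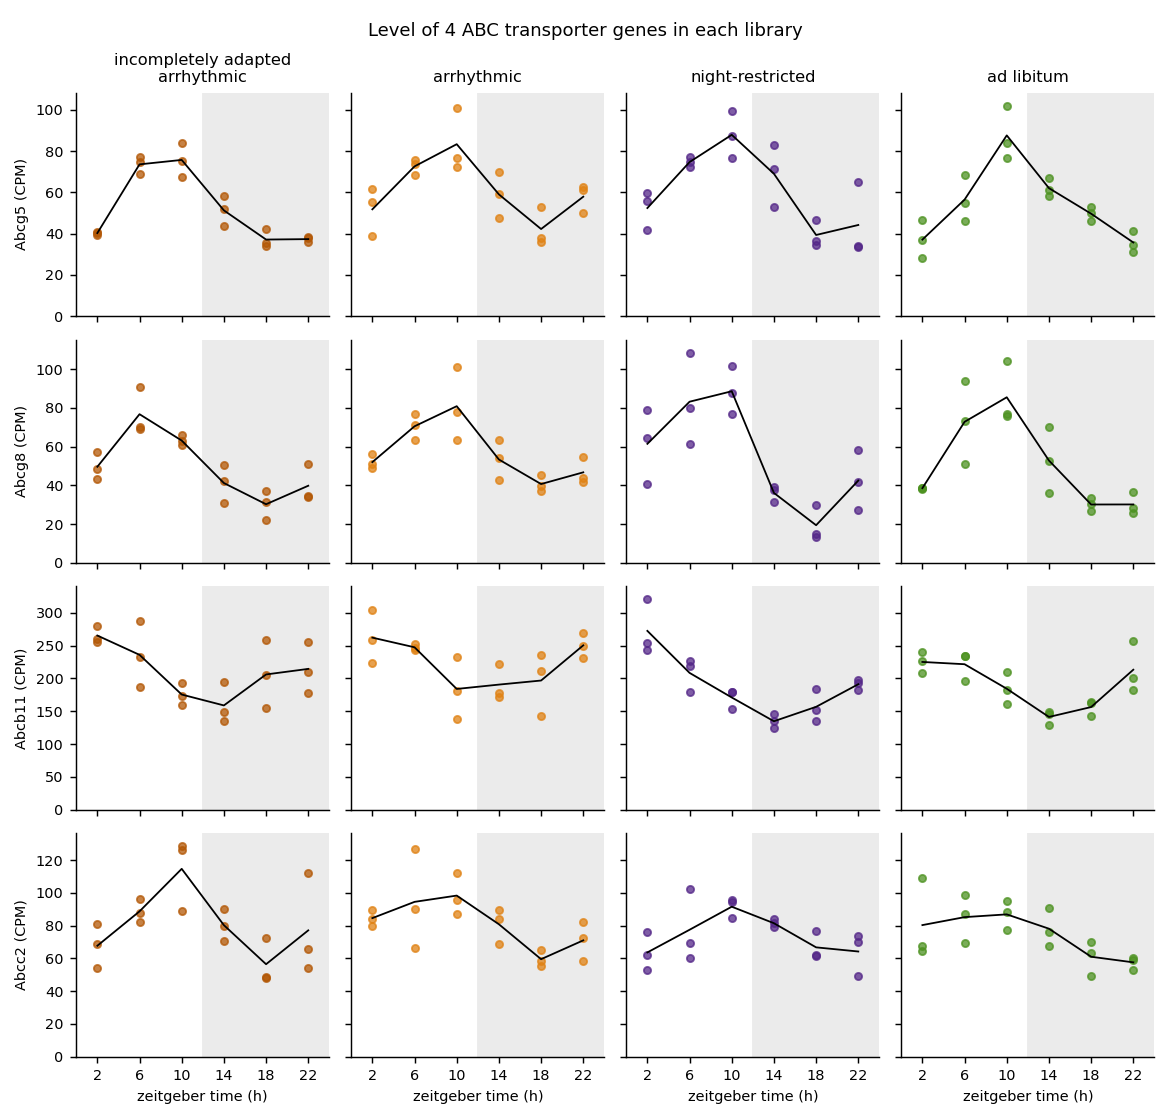
CPM of Abcg5, Abcg8, Abcb11 and Abcc2 by zeitgeber time, one column per paradigm. Points are libraries, black lines join the means of 3, and the dark phase is grey. Abcg5, Abcg8 and Abcc2 stand highest at ZT06 or ZT10, while Abcb11 stands highest at ZT02 and lowest at ZT10 or ZT14.

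Of the 6 genes of canalicular export, Abcb11 was called rhythmic in the most paradigms, 3 of 4, without the GC slope covariate. Abcb11 (chr2:69238282-69342616, minus strand) encodes the bile salt export pump. At ZT02 it had 280, 255 and 260 CPM in incompletely adapted arrhythmic, 259, 223 and 304 CPM in arrhythmic, 254, 320 and 243 CPM in night-restricted and 227, 240 and 208 CPM in ad libitum livers. At ZT14 it had 194, 135 and 148 CPM in incompletely adapted arrhythmic, 172, 178 and 222 CPM in arrhythmic, 146, 124 and 135 CPM in night-restricted and 128, 146 and 149 CPM in ad libitum livers. All ZT02 libraries lay above all ZT14 libraries of their paradigm, by the smallest gap in arrhythmic livers, where 223 CPM faced 222 CPM. ZT02 had the highest mean in every paradigm and ZT14 the lowest outside arrhythmic livers. This lack of overlap is thus no separate support for a rhythm. The fitted range was 0.62 ± 0.16 in incompletely adapted arrhythmic livers (peak ZT 1.20, adjusted p = 0.0420), 0.98 ± 0.16 in night-restricted livers (peak ZT 2.33, adjusted p = 1.24e-05) and 0.72 ± 0.16 in ad libitum livers (peak ZT 3.12, adjusted p = 0.00574). In arrhythmic livers the range was 0.33 ± 0.16 with an adjusted p of 0.501. The incompletely adapted arrhythmic call was lost without any one of 10 libraries, with an adjusted p of up to 0.151 without its ZT14 replicate 2, and predicted antisense genes overlap Abcb11 exons.

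Abcc2, which secretes conjugates such as bilirubin glucuronide, had a fitted range of 0.67 in incompletely adapted arrhythmic, 0.67 in arrhythmic, 0.44 in night-restricted and 0.67 in ad libitum livers. It passed the test in ad libitum livers (peak ZT 8.10, adjusted p = 0.0428), and its adjusted p was 0.0507 in incompletely adapted arrhythmic, 0.0770 in arrhythmic and 0.147 in night-restricted livers. With the GC slope covariate these became 0.0185, 0.0357 and 0.0989, against 0.0415 in ad libitum livers. Its highest time mean was at ZT10 in every paradigm, at 115 ± 22.1 CPM in incompletely adapted arrhythmic, 98.4 ± 12.8 CPM in arrhythmic, 91.6 ± 6.13 CPM in night-restricted and 86.9 ± 8.99 CPM in ad libitum livers (SD, n = 3). The ad libitum call was lost without any one of 20 libraries. Without the 5 libraries of extreme GC slope the adjusted p of Abcc2 was 0.0740 in incompletely adapted arrhythmic, 0.0187 in arrhythmic, 0.0115 in night-restricted and 0.0115 in ad libitum livers, and with replicate number as a block it was 0.0491 in incompletely adapted arrhythmic livers.

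Abcg2, which carries urate and many drugs, was rhythmic in night-restricted livers with a range of 0.91 ± 0.16 and a peak at ZT 13.6 (adjusted p = 0.000116). There it had 28.3, 34.7 and 46.5 CPM at ZT02 and 65.9, 68.9 and 64.5 CPM at ZT10. These are its times of lowest and highest mean, so their lack of overlap is no separate support. Its adjusted p was 0.563 in incompletely adapted arrhythmic, 0.357 in arrhythmic and 0.377 in ad libitum livers. Abcb1a, one of the 2 mouse genes for P-glycoprotein, was also called in night-restricted livers, with a range of 1.82 ± 0.51 and a peak at ZT 12.9 (adjusted p = 0.0117), and had an adjusted p of 0.121 without the 5 libraries of extreme GC slope. It averaged 10.9 ± 2.36 CPM at ZT14 and 2.98 ± 2.48 CPM at ZT02 there. Abcb1b, its neighbour and the other of these 2 genes, averaged 1.21 CPM and was called in no test. The division of reads between Abcb1a and Abcb1b was not tested. Abcb4, which moves phosphatidylcholine into bile, showed no called rhythm, with ranges from 0.19 to 0.33 in the 4 paradigms.

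Of 8 intracellular and lipid-related members of subfamilies A and B, 4 were rhythmic in night-restricted livers, where 29.9 percent of all genes were. In the other paradigms 0 were called by edgeR without the GC slope covariate or by DESeq2. Those with an unadjusted p under 0.05 numbered 2 in incompletely adapted arrhythmic, 1 in arrhythmic and 1 in ad libitum livers. Of all 12712 genes, 1756, 1757 and 2847 had such a p in these paradigms. Abca2, a transporter of endolysosomes, had a range of 0.91 ± 0.22 with a peak at ZT 1.85 (adjusted p = 0.00492, and 0.194 without the 5 libraries of extreme GC slope). In arrhythmic livers Abca2 had an adjusted p of 0.462, and 0.0155 with the GC slope covariate, where its range was 0.70 with a peak at ZT 2.80. Abca8b had a range of 0.84 ± 0.22 with a peak at ZT 2.83 (adjusted p = 0.0129), and Abca6 one of 0.67 ± 0.18 with a peak at ZT 13.9 (adjusted p = 0.00685). Abca6 averaged 24.3 ± 2.70 CPM at ZT14 and 12.8 ± 3.07 CPM at ZT06, while Abca8b averaged 7.23 ± 1.51 CPM at ZT14 and 14.8 ± 6.44 CPM at ZT02 (SD, n = 3), so that these genes of one cluster on chromosome 11 were high in different phases. Abca3, known for lipid transport into lung surfactant bodies, had a range of 0.75 ± 0.24 with a peak at ZT 0.537 (adjusted p = 0.0429), which was 0.242 with the GC slope covariate. Abca8a was not called, at an adjusted p of 0.0618 in night-restricted livers, and had 0.0467 with the GC slope covariate. Abca5, Abca7 and the lysosomal peptide transporter gene Abcb9 were called in no test of rhythm with or without the covariate.

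Among the peroxisomal and cobalamin group of 4, Abcd2 was rhythmic in night-restricted livers. Abcd2 (chr15:91145871-91191799, minus strand) carries very long-chain fatty acids into peroxisomes. In night-restricted livers it had 9.86, 17.1 and 7.95 CPM at ZT06 and 4.19, 5.19 and 5.07 CPM at ZT18. These are its times of highest and lowest mean there, so their lack of overlap is no separate support. Its range was 1.28 ± 0.37 with a peak at ZT 8.37 (adjusted p = 0.0243), and the adjusted p was 0.0648 without night-restricted ZT22 replicate 2 and 0.0511 without the 5 libraries of extreme GC slope. In the other paradigms the range was 0.97 in incompletely adapted arrhythmic, 1.01 in arrhythmic and 0.69 in ad libitum livers, with an adjusted p of 0.266 in incompletely adapted arrhythmic, 0.274 in arrhythmic and 0.401 in ad libitum livers. Abcd3, the peroxisomal membrane protein PMP70, was called in no test. Abcd3 spanned 271 to 2452 CPM in incompletely adapted arrhythmic, 356 to 1644 CPM in arrhythmic, 63.7 to 1332 CPM in night-restricted and 126 to 1317 CPM in ad libitum libraries, and its log level had a correlation of -0.885 with the GC slope.

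The mitochondrial members Abcb8 and Abcb10, the second of which takes part in heme synthesis, were called in no test. Of 4 members of subfamilies E and F, Abce1, which recycles ribosomes, was rhythmic in night-restricted livers with a range of 1.88 ± 0.56 and a peak at ZT 16.4 (adjusted p = 0.0296). With the GC slope covariate its range was 0.72 (adjusted p = 0.0414), and without the 5 libraries of extreme GC slope the adjusted p was 0.140. None of the 7 multidrug resistance-associated and channel-regulating members was rhythmic in any paradigm. At an unadjusted p under 0.05, 3 of those 7 counted as rhythmic in night-restricted livers and 0 in the other paradigms. Of all 12712 genes, 5496 had such a p in night-restricted livers. In incompletely adapted arrhythmic, arrhythmic and ad libitum livers 1756, 1757 and 2847 did. DESeq2 called 1 of those 7 in night-restricted livers and 0 in the others.

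**Figure D3:**
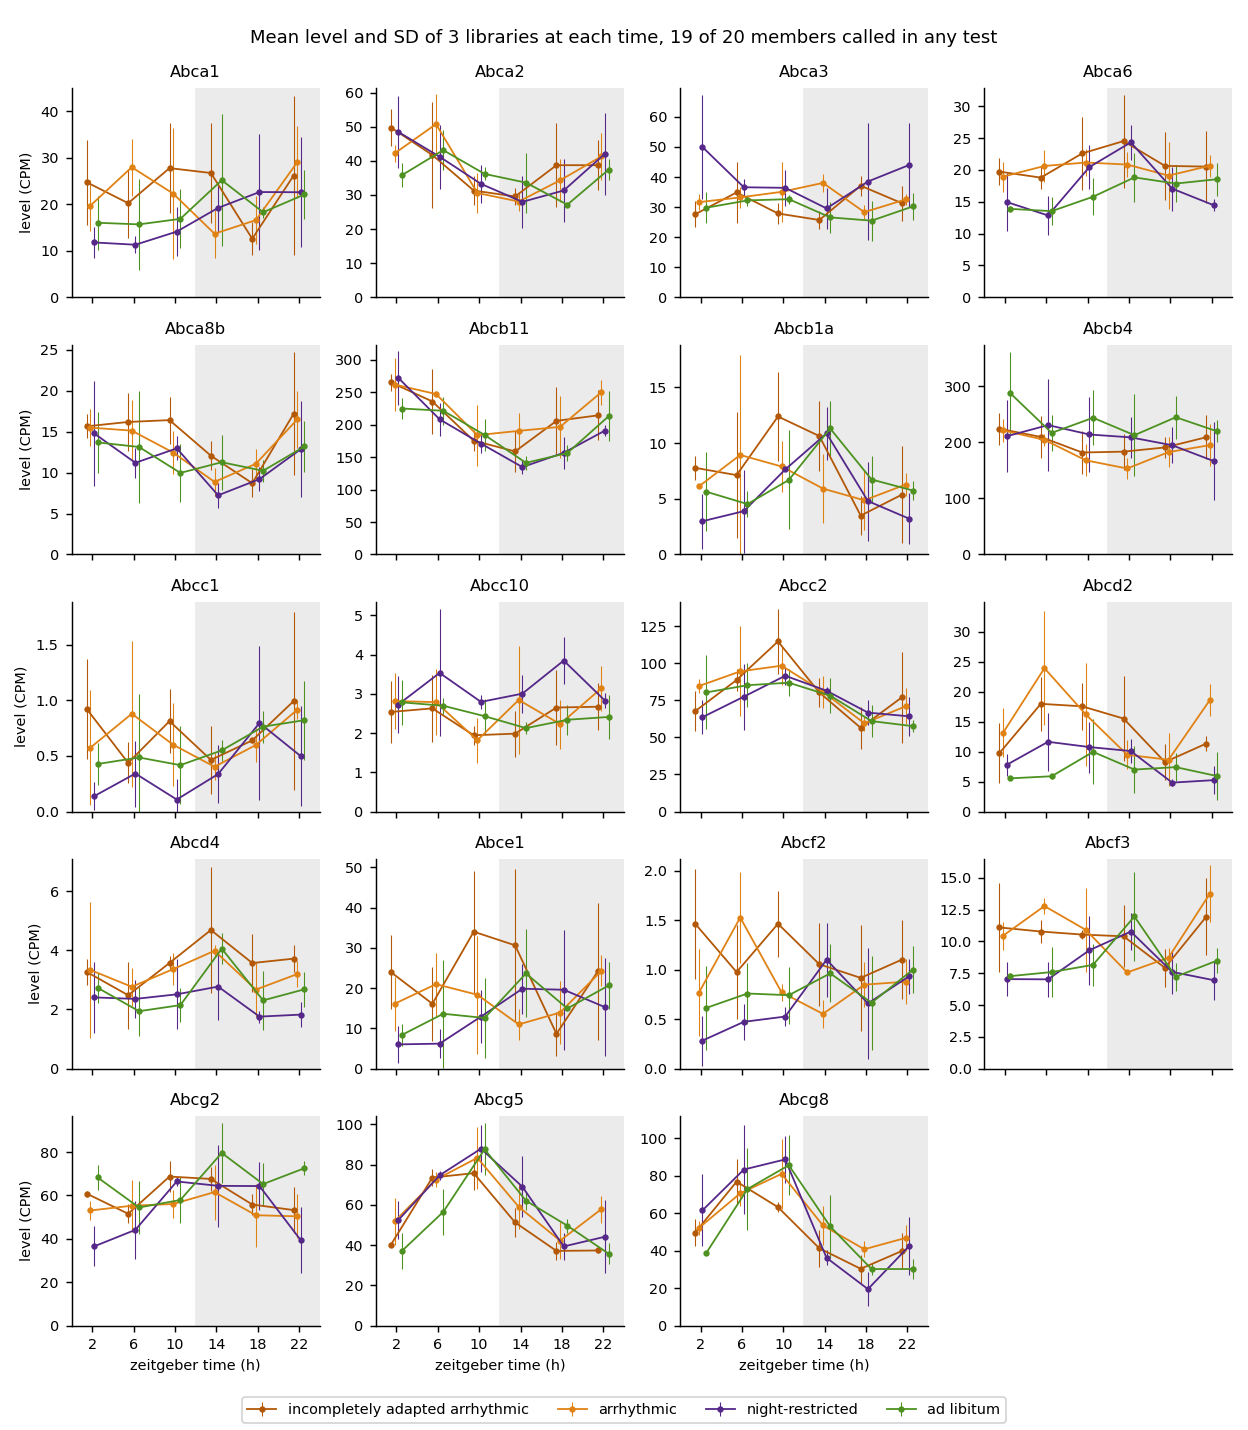
Mean CPM (vertical axis, ± SD of 3 libraries) by zeitgeber time of 19 of the 20 members called in at least one test, with one line per paradigm. Abcg5, Abcg8 and Abcb11 have their highest means at ZT02 to ZT10 in every paradigm, and the highest mean of Abcd2 at each time is in incompletely adapted arrhythmic or arrhythmic livers.

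The rhythms were then compared between paradigms in the same fit, with a test of both cosine terms together. Comparisons that share a paradigm share its libraries and are not independent of each other. For arrhythmic against night-restricted livers 1 of 37 members passed, where 3.89 percent of all genes did. This was Abcg8, whose range was 1.02 lower in arrhythmic livers (difference -1.02 ± 0.37, adjusted p = 0.0417) with a peak 2.98 h later. The call was lost with the GC slope covariate (adjusted p = 0.0765), without the 5 libraries of extreme GC slope (0.104) and without any one of 13 libraries, while the difference in range stayed between -1.25 and -0.83. No member passed for incompletely adapted arrhythmic against arrhythmic (0.0 percent of all genes), incompletely adapted arrhythmic against night-restricted (0.614 percent), arrhythmic against ad libitum (0.0236 percent) or night-restricted against ad libitum livers (0.0 percent). At an unadjusted p under 0.05 these 4 comparisons had 0, 5, 4 and 5 members, and DESeq2 called 0 in each. Of all 12712 genes, 310, 1855, 1150 and 1109 had such a p. For arrhythmic against night-restricted livers 10 members had an unadjusted p under 0.05, as had 3294 of all 12712 genes. DESeq2 called 2 members there, of which 1 was in the sterol and phospholipid group and 1 in the intracellular A and B group. By edgeR no member called in night-restricted livers alone was shown to differ in rhythm from another paradigm. The median difference in range over the members was -0.31 for incompletely adapted arrhythmic against night-restricted, -0.28 for arrhythmic against night-restricted and 0.26 for night-restricted against ad libitum livers, beside -0.27, -0.25 and 0.18 over all genes.

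Mean levels over the day were compared next, as log2 differences between the fitted means of 18 libraries each. In bulk liver, fewer cells of a type and less RNA per cell cannot be told apart. For arrhythmic against ad libitum livers 4 of 37 members passed, 2 higher and 2 lower, where 2.10 percent of all genes did, 0.661 percent higher and 1.44 percent lower. For arrhythmic against night-restricted livers 2 passed, both higher, where 6.92 percent of all genes did, 1.76 percent higher and 5.16 percent lower. For incompletely adapted arrhythmic against night-restricted livers 9 passed, 6 higher and 3 lower, where 18 percent of all genes did, 6.85 percent higher and 11.2 percent lower. For night-restricted against ad libitum livers 2 passed, 1 higher and 1 lower, where 1.62 percent of all genes did, 0.724 percent higher and 0.897 percent lower. For incompletely adapted arrhythmic against arrhythmic livers 0 passed, where 0.0 percent of all genes did, and DESeq2 called 0. An unadjusted p under 0.05 was found for 2 members there, and for 639 of all 12712 genes.

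Abcd2 had the largest called difference of the members. It had a lowest, median and highest library of 4.92, 12.1 and 23.7 CPM in incompletely adapted arrhythmic, 4.09, 14.9 and 34.1 CPM in arrhythmic, 2.95, 7.88 and 17.1 CPM in night-restricted and 1.83, 5.94 and 16.1 CPM in ad libitum livers. The groups overlapped, with both arrhythmic paradigms above the others in the median. Against ad libitum livers, arrhythmic livers were higher by 1.05 ± 0.18 (adjusted p = 0.000249), with means of 15.0 ± 7.41 CPM in arrhythmic and 6.94 ± 3.19 CPM in ad libitum livers (SD, n = 18 each), and higher at 6 of 6 times. Against night-restricted livers, arrhythmic livers were higher by 0.78 ± 0.18 (adjusted p = 0.00616), the night-restricted mean being 8.38 ± 3.72 CPM, and were higher at 5 of 6 times. Incompletely adapted arrhythmic livers were higher than night-restricted livers by 0.60 ± 0.18 (adjusted p = 0.0179, and 0.128 with the GC slope covariate), the incompletely adapted arrhythmic mean being 13.4 ± 5.43 CPM, and were higher at 6 of 6 times. The first 2 of these differences held with the GC slope covariate and with any 1 library left out. Abcd2 is also known from fat, and the summed level of 5 adipocyte markers, all with counts, ranged from 0.516 to 13.4 CPM with a median of 4.15 in incompletely adapted arrhythmic, 0 to 5.13 CPM with a median of 1.39 in arrhythmic, 0.133 to 6.13 CPM with a median of 0.932 in night-restricted and 3.71 to 20.4 CPM with a median of 6.97 in ad libitum livers. The median of that sum was higher in incompletely adapted arrhythmic and in arrhythmic than in night-restricted livers, as the level of Abcd2 was. That median was lower in arrhythmic than in ad libitum livers, while Abcd2 was higher in arrhythmic livers. The part of these markers in the Abcd2 differences was not tested.

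Abcb4 was lower in arrhythmic than in ad libitum livers. Its lowest, median and highest library had 145, 202 and 249 CPM in incompletely adapted arrhythmic, 133, 192 and 244 CPM in arrhythmic, 92.6, 201 and 307 CPM in night-restricted and 129, 238 and 356 CPM in ad libitum livers. Arrhythmic livers averaged 187 ± 31.4 CPM and ad libitum livers 238 ± 50.9 CPM (SD, n = 18 each), a difference of -0.36 ± 0.09 (adjusted p = 0.0169) that was negative at 6 of 6 times and held with any 1 library left out. The ranges overlapped, with 8 of 18 ad libitum libraries above every arrhythmic one.

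Abcg2 was lower in both arrhythmic and night-restricted than in ad libitum livers. Its lowest, median and highest library had 42.8, 60.2 and 76.4 CPM in incompletely adapted arrhythmic, 34.3, 54.6 and 72.3 CPM in arrhythmic, 25.8, 53.7 and 85.5 CPM in night-restricted and 40.3, 69.0 and 95.3 CPM in ad libitum livers. Arrhythmic against ad libitum livers differed by -0.29 ± 0.08 (adjusted p = 0.0447) and night-restricted against ad libitum livers by -0.33 ± 0.08 (adjusted p = 0.0204), each lower at 5 of 6 times. The first call was lost without any one of 56 libraries, with an adjusted p of up to 0.106, and the second had an adjusted p of 0.133 without the 5 libraries of extreme GC slope. Abcb4 and Abcg2 were the 2 of 6 canalicular genes called for arrhythmic against ad libitum livers. Abcb11 was not called in that comparison, with 222 ± 44.1 CPM in arrhythmic and 190 ± 38.5 CPM in ad libitum livers (difference 0.22 ± 0.08, adjusted p = 0.150), but had an adjusted p of 0.0424 with the GC slope covariate. With that covariate Abcb11 also had an adjusted p of 0.0454 for arrhythmic against night-restricted livers, which was 0.149 without it.

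**Figure D4:**
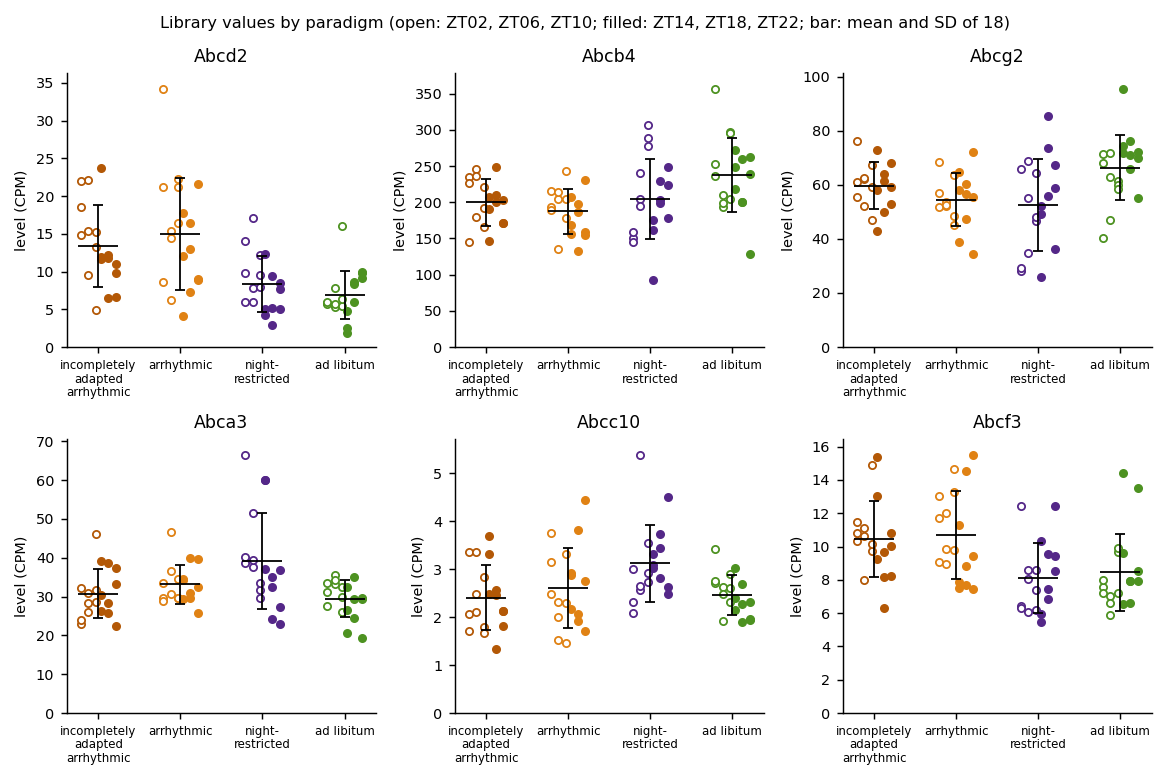
CPM of each library for Abcd2, Abcb4, Abcg2, Abca3, Abcc10 and Abcf3 in incompletely adapted arrhythmic, arrhythmic, night-restricted and ad libitum livers. Open points are ZT02 to ZT10, filled points ZT14 to ZT22, and bars give the mean and SD of 18 libraries. Abcd2 averages 15.0 CPM in arrhythmic and 6.94 CPM in ad libitum livers, and the groups overlap for each of the 6 genes.

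Abca3 was higher in night-restricted than in ad libitum livers and lower in incompletely adapted arrhythmic than in night-restricted livers. Its lowest, median and highest library had 22.5, 29.6 and 46.2 CPM in incompletely adapted arrhythmic, 25.7, 31.6 and 46.6 CPM in arrhythmic, 23.0, 37 and 66.4 CPM in night-restricted and 19.4, 29.8 and 35.7 CPM in ad libitum livers. The 4 libraries over 50 CPM were all night-restricted, 3 of them replicate 1, and 2 of those are among the 5 libraries of extreme GC slope. Night-restricted livers were higher than ad libitum livers by 0.48 ± 0.12 (adjusted p = 0.0247), and without the 5 libraries by 0.32 (adjusted p = 0.247). Incompletely adapted arrhythmic livers were lower than night-restricted livers by a difference of -0.45 ± 0.12 (adjusted p = 0.0104), which was -0.17 (adjusted p = 0.268) with the GC slope covariate. The log level of Abca3 had a correlation of 0.677 with the GC slope over the 72 libraries. Abca6 was higher in arrhythmic livers, at 20.2 ± 2.59 CPM, than in ad libitum livers, at 16.4 ± 3.15 CPM (difference 0.30 ± 0.09, adjusted p = 0.0467), and this call was lost without any one of 23 libraries.

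Abcf3, a soluble member of subfamily F, was higher in both arrhythmic paradigms than in night-restricted livers. Its lowest, median and highest library had 6.32, 10.3 and 15.4 CPM in incompletely adapted arrhythmic, 7.46, 9.81 and 15.5 CPM in arrhythmic, 5.47, 7.76 and 12.4 CPM in night-restricted and 5.88, 7.93 and 14.4 CPM in ad libitum livers. Incompletely adapted arrhythmic livers differed from night-restricted livers by 0.29 ± 0.10 (adjusted p = 0.0314, and 0.167 with the GC slope covariate). Arrhythmic livers differed from night-restricted livers by 0.33 ± 0.10 (adjusted p = 0.0271, and 0.0814 without the 5 libraries of extreme GC slope). Abcf2 and Abce1 were called with it for incompletely adapted arrhythmic against night-restricted livers, by 0.76 ± 0.24 (adjusted p = 0.0204) and 0.82 ± 0.27 (adjusted p = 0.0299). With the GC slope covariate Abcf2 had an adjusted p of 0.0986, and Abce1 a difference of 0.09 (adjusted p = 0.736). For this pair of paradigms the Abce1 call was lost without any one of 9 libraries, with an adjusted p of up to 0.0767. That of Abcf3 was lost without any one of 5, with an adjusted p of up to 0.0706. Abcf1, a factor of translation initiation, was called in no test.

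Abcc10, which exports drugs and conjugates, was lower in incompletely adapted arrhythmic than in night-restricted livers at 6 of 6 times. Its lowest, median and highest library had 1.34, 2.29 and 3.70 CPM in incompletely adapted arrhythmic, 1.45, 2.4 and 4.44 CPM in arrhythmic, 2.09, 2.96 and 5.37 CPM in night-restricted and 1.91, 2.44 and 3.42 CPM in ad libitum livers. The means were 2.4 ± 0.676 CPM in incompletely adapted arrhythmic and 3.12 ± 0.799 CPM in night-restricted livers (SD, n = 18 each), a difference of -0.48 ± 0.12 (adjusted p = 0.00689). Of the 9 calls for these 2 paradigms it was the one that held with the GC slope covariate (adjusted p = 0.0188), and none of the 9 held without the 5 libraries of extreme GC slope, where that of Abcc10 was 0.0503. Night-restricted against ad libitum livers had an adjusted p of 0.0663 for Abcc10, and 0.0457 with the GC slope covariate. A median of 18 counts per library lay behind Abcc10, and exons of Dlk2 overlap it on the other strand.

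The remaining calls for incompletely adapted arrhythmic against night-restricted livers were Abcc1, Abcd4 and Abcg5. Abcc1, a broad exporter of conjugates, averaged 0.711 ± 0.416 CPM in incompletely adapted arrhythmic and 0.369 ± 0.402 CPM in night-restricted livers (difference 0.97 ± 0.36, adjusted p = 0.0435), on a median of 4 counts per library. The Abcc1 call was lost without any one of 15 libraries, with an adjusted p of up to 0.0884. Abcd4, a lysosomal protein of cobalamin transport, averaged 3.55 ± 1.14 CPM in incompletely adapted arrhythmic and 2.27 ± 0.836 CPM in night-restricted livers (difference 0.52 ± 0.16, adjusted p = 0.0198). Abcg5 averaged 52.5 ± 17.4 CPM in incompletely adapted arrhythmic and 61.2 ± 20.4 CPM in night-restricted livers (difference -0.32 ± 0.09, adjusted p = 0.00919), lower at 6 of 6 times. With the GC slope covariate the adjusted p was 0.355 for Abcc1, 0.0638 for Abcd4 and 0.0502 for Abcg5.

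**Figure D5:**
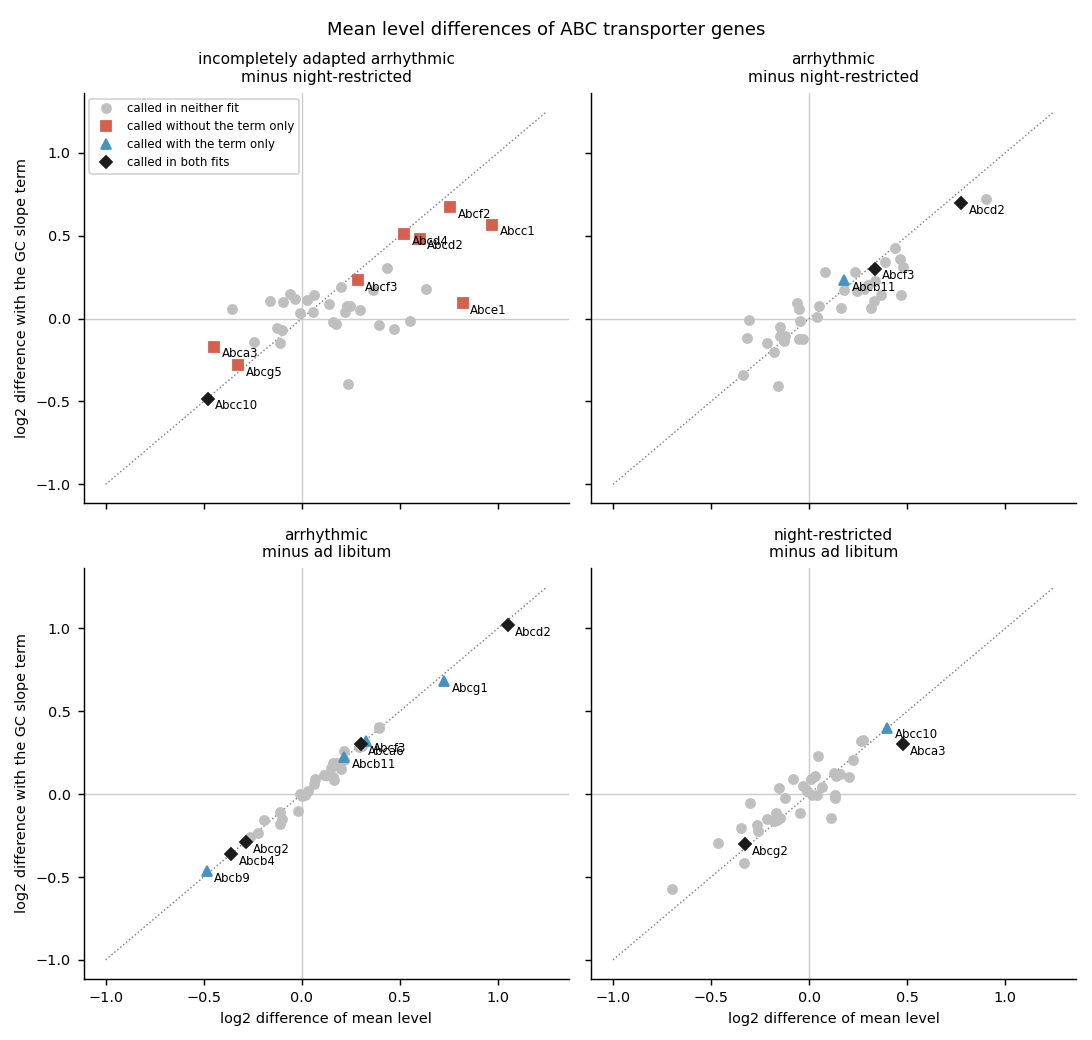
Log2 difference in mean level of the 37 members in 4 pairs of paradigms, without (horizontal axis) and with (vertical axis) the GC slope covariate. Black diamonds passed the test in both fits, red squares only without the covariate, blue triangles only with it, and grey circles in neither. Abcd2 stands apart for arrhythmic against ad libitum livers at 1.05 without and 1.02 with the covariate, while Abce1 for incompletely adapted arrhythmic against night-restricted livers goes to 0.09 with the covariate.

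With the GC slope covariate 8 of 37 members passed for arrhythmic against ad libitum livers, where 6.97 percent of all genes did. Beside Abcd2, Abcb4, Abcg2 and Abca6 these were Abcb11, Abcb9, Abcf3 and Abcg1. Abcb9 averaged 2.58 ± 0.673 CPM in arrhythmic and 3.60 ± 1.12 CPM in ad libitum livers (adjusted p = 0.0433). Abcg1 averaged 1.33 ± 0.603 CPM in arrhythmic and 0.771 ± 0.388 CPM in ad libitum livers (adjusted p = 0.0497, and 0.04997 without the 5 libraries of extreme GC slope). Abcf3 had an adjusted p of 0.0512 without and 0.0224 with the covariate, 0.0449 without the 5 libraries and 0.0296 with replicate number as a block. For incompletely adapted arrhythmic against night-restricted livers 1 of 37 passed, where 4.45 percent of all genes did.

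Without the covariate, 17 members were called in no test. Among these were Abca5, Abca7, Abca8a, Abcb1b, Abcb8, Abcb9, Abcb10, Abcc3, Abcc4, Abcc5, Abcc6, Abcc9, Abcd3, Abcf1, Abcg1 and Abcg3. Abcc3 and Abcc4 export conjugates and bile acids to the blood side, Abcc6 is required for hepatic ATP release, and Abcc9 is the regulatory subunit of a potassium channel. Abcc3 had medians of 19.0 CPM in incompletely adapted arrhythmic, 19.1 CPM in arrhythmic, 20.6 CPM in night-restricted and 23.0 CPM in ad libitum livers, and its fitted ranges ran from 0.05 to 0.35. Abcc6 had a range of 0.47 ± 0.16 in night-restricted livers (adjusted p = 0.0586) and 0.26 or less in the other 3. Abcg3 is a rodent gene related to Abcg2 and averaged 1.47 CPM.

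Genes that work with the ABC transporters were counted in the same fits. Of 21 regulators of hepatic ABC genes, 6 were rhythmic in incompletely adapted arrhythmic livers (3.63 percent of all genes), 7 in arrhythmic (3.37 percent), 12 in night-restricted (29.9 percent) and 8 in ad libitum livers (7.48 percent). The list was chosen with results of these data known and holds clock genes. The clock-output factor Dbp had ranges of 5.08 in incompletely adapted arrhythmic, 4.79 in arrhythmic, 5.45 in night-restricted and 6.56 in ad libitum livers, and the clock repressor Nr1d2 ranges of 2.37 in incompletely adapted arrhythmic, 1.97 in arrhythmic, 2.95 in night-restricted and 3.15 in ad libitum livers. The difference in rhythm was called for 1 of the 21, Hlf, for arrhythmic against night-restricted livers (-0.75 ± 0.20, adjusted p = 0.0147), where 3.89 percent of all genes were called. In mean level 6 of the 21 were lower and 0 higher in incompletely adapted arrhythmic than in night-restricted livers, beside 11.2 percent of all genes lower and 6.85 percent higher. With the GC slope covariate 1 of the 21 was lower, beside 4.45 percent of all genes in either direction. It was Srebf2, a regulator of sterol synthesis (-0.39 ± 0.08, adjusted p = 0.00162 without the covariate). Srebf2 was also lower in arrhythmic than in night-restricted livers (-0.36 ± 0.08, adjusted p = 0.00657). It was the 1 regulator of 21 called there, where 6.92 percent of all genes were called.

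Of 15 tested uptake transporters and canalicular partners, 1 was rhythmic in arrhythmic (3.37 percent of all genes) and 3 in night-restricted livers (29.9 percent). In the others edgeR called 0, and 3 in incompletely adapted arrhythmic and 4 in ad libitum livers had an unadjusted p under 0.05. Of all 12712 genes, 1756 and 2847 had such a p in these 2 paradigms. Slc10a1, which takes up bile salts from blood, had a range of 0.89 ± 0.17 in night-restricted livers with a peak at ZT 10.5 (adjusted p = 0.000145), where Abcb11 peaked at ZT 2.33. Slco1a4, an uptake carrier of organic anions, was the 1 of 15 called for arrhythmic against ad libitum livers (0.74 ± 0.14, adjusted p = 0.00142), where 2.1 percent of all genes were called. Slco1a4 was also higher in night-restricted than in ad libitum livers (0.87 ± 0.14, adjusted p = 5.4e-05). Of 13 genes of peroxisomal beta-oxidation and membrane insertion, 2 were rhythmic in incompletely adapted arrhythmic livers (3.63 percent of all genes), 2 in arrhythmic (3.37 percent), 3 in night-restricted (29.9 percent) and 1 in ad libitum livers (7.48 percent). Crot, which makes carnitine esters of shortened fatty acids, was called in all 4, with ranges from 1.08 to 1.44. Where Abcd2 was higher in arrhythmic than in ad libitum livers, 0 of these 13 were higher and 1 was lower. Of all genes 0.661 percent were higher and 1.44 percent lower there. For incompletely adapted arrhythmic against night-restricted livers 5 of the 13 were higher and 1 lower, beside 6.85 percent of all genes higher and 11.2 percent lower. With the GC slope covariate 4 of the 13 were higher and 0 lower, beside 4.45 percent of all genes in either direction. Acox2 was among the higher in both fits (0.32 ± 0.08, adjusted p = 0.00384 without the covariate). Tap1, an ABC peptide transporter outside the symbol rule, was rhythmic in night-restricted livers (range 1.46 ± 0.20) and in ad libitum livers (0.91 ± 0.20), and its rhythm differed between incompletely adapted arrhythmic and night-restricted livers (range difference -1.20 ± 0.28, adjusted p = 0.0240).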

How the data were processed

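The authors deposited a table of raw counts per gene, with 3 libraries for each of 4 paradigms and 6 times, and a table of CPM. The deposited CPM table, although named for TPM, equals the count table scaled to CPM to within 5.09e-11 for its 11508 genes, 33 of the members among them. It served as a check, and CPM values in the text were scaled to the total of all 51912 entries. Of these, 279 (0.0107 percent of counts) had no gene symbol. The submitters' processing notes name the aligner STAR, version 2.4.2a, and list mm10 as well as GRCm38.p5 among the builds. How reads were counted, with which strand setting and which annotation, is not given in the sources used here. CPM has no length term, so levels were not ranked between genes.

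Counts were fitted in R 4.3.3 with edgeR 4.0.16 (quasi-likelihood F test, TMM scaling, low-count filter over the 24 combinations of paradigm and time, 12712 genes, all 72 libraries in 1 fit). Terms were a mean, a cosine and a sine per paradigm. p-values were adjusted by Benjamini-Hochberg over all genes at 0.05, and SEs come from the delta method. The GC slope is the regression of a library's log2(CPM + 1) deviations on the GC content of the last 500 bases of protein-coding transcripts, over 6094 genes of at least 10 CPM. The test was run on simulated data with known changes. DESeq2 1.42.0 and 9 other settings were tried, and each library was left out in turn. Replicate libraries of 1 time differed by far more than counting error.

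The members, role lists and pathway lists were chosen with earlier results of these data known. Of the 37 members 35 are named, and the others are not reported here singly. Library values are given for Abcd2, Abcb11 and Abcg5 and for the 5 other members of smallest p in any difference between paradigms. Of each pathway list at most 4 genes of small p are named, and Hlf, Srebf2, Slco1a4 and Acox2 were named after their values were seen. Promoter windows are from RefSeq, by gene symbol.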

Additional observations from a re-analysis of the deposited data

Results flagged for a closer look

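The rhythm of Abcg8 differed between arrhythmic and night-restricted livers by the test of the difference itself, with a range difference of -1.02 (range 0.98 in arrhythmic and 1.99 in night-restricted livers, adjusted p = 0.0417 by edgeR's quasi-likelihood test). Of the 37 members it is the 1 with a called difference in rhythm, and the call was lost without any one of 13 libraries. It was also lost with the GC slope covariate, alone or with the replicate block, and without the 5 libraries of extreme GC slope. No filter on low counts, time as a factor and a fit on the paradigms' own libraries lost it too. Abcg5, the partner gene of Abcg8, had ranges of 0.79 in arrhythmic and 1.10 in night-restricted livers, and that difference was not called. Whether the 2 genes differ from each other was not tested.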

How the results depend on the processing

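The 37 members gave 40 calls for single genes. No mean level call changed direction under the 10 other settings or with any 1 library left out. Nor did the 1 called difference in rhythm. A fitted range is never negative, so the rhythm calls could not change direction and this says nothing about them. All 40 were kept by DESeq2, by a dispersion fit without robust shrinkage and with the replicate block. RLE size factors lost 2 of them, the GC slope covariate 10, the replicate block with the GC slope covariate 9, no filter on low counts 15, time as a factor 16, each fit on its own paradigms' libraries 14 of 39, and leaving out the 5 libraries of extreme GC slope 20. Over the leave-one-out fits 23 of 40 calls were kept in all 72 and 17 were lost in at least 1. Why calls were lost was not tested.

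Of 140 counts of called members (14 comparisons under 10 settings), 112 stayed within 1.5 times the reported one. For mean level, arrhythmic against ad libitum livers had 2 without the filter and 8 with the GC slope covariate, alone or with the block. Arrhythmic against night-restricted livers had 1 without the filter and 1 without the 5 libraries. Incompletely adapted arrhythmic against night-restricted livers had 1 with the covariate, 2 with covariate and block, and 0 without the 5 libraries. Night-restricted against ad libitum livers had 1 without the filter, 1 on their own libraries and 0 without the 5 libraries. For rhythm, ad libitum livers had 2 with time as a factor. Arrhythmic livers had 1 without the filter, 1 with time as a factor, and 5 with the covariate, alone or with the block. Incompletely adapted arrhythmic livers had 5 with covariate and block and 1 with time as a factor. Night-restricted livers had 7 without the 5 libraries, 6 with time as a factor and 6 on their own libraries. The difference in rhythm of arrhythmic against night-restricted livers had 2 by DESeq2 and 0 without the filter, with the covariate, with covariate and block, without the 5 libraries, with time as a factor and on their own libraries.

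With 1 library left out, the mean level counts ran from 2 to 5 for arrhythmic against ad libitum, 2 to 3 for arrhythmic against night-restricted, 6 to 13 for incompletely adapted arrhythmic against night-restricted and 1 to 2 for night-restricted against ad libitum livers, and were 0 for incompletely adapted arrhythmic against arrhythmic livers. Rhythm counts ran from 2 to 4 in incompletely adapted arrhythmic, 1 to 3 in arrhythmic, 9 to 15 in night-restricted and 3 to 4 in ad libitum livers. The difference in rhythm ran from 0 to 4 for arrhythmic against night-restricted livers and was 0 in the other 4 pairs.

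The replicate numbers were not taken to pair the samples. Same-numbered libraries did not all correlate over 0.1, a bar that paired samples need not meet, so it cannot decide on pairing. The correlation was that of their deviations from the mean of their paradigm and time, over all genes of at least 10 CPM. Of 828 pairs with the same number 381 did, with a range from -0.865 to 0.933 and a median of 0.0533, and of 1656 pairs with different numbers 649 did, with a median of -0.0139. The 5 libraries of extreme GC slope are all replicate 1. With the replicate block 4, 3, 12 and 4 members were rhythmic in incompletely adapted arrhythmic, arrhythmic, night-restricted and ad libitum livers. Mean level counts with the block were 0, 10, 2, 5 and 2 for incompletely adapted arrhythmic against arrhythmic and against night-restricted, arrhythmic against night-restricted and against ad libitum, and night-restricted against ad libitum livers. The block changed no other count, with 1 difference in rhythm for arrhythmic against night-restricted livers and 0 elsewhere. The block added calls for Abcc2 (rhythm in incompletely adapted arrhythmic livers), Abcb10 (incompletely adapted arrhythmic against night-restricted livers, adjusted p = 0.0404) and Abcf3 (arrhythmic against ad libitum livers). Counting error is large for members of few counts, such as Abcc1 with a median of 4 per library.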
